A study of Mus musculus with 8 samples.

Results

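Flt3, Itgax, Cd209a, Clec9a, Zbtb46, Batf3, Irf8 and Irf4 are 8 genes by which dendritic cells are commonly recognised. They were taken by symbol from a table of 24391 gene symbols, and all 8 were found in it. The table comes from lesions of the mouse brachiocephalic artery (BCA), a short branch of the aortic arch in which advanced plaques are often studied. All animals were C57BL/6 mice, and each had received a Western diet over 18 weeks. The design text describes them as wild type animals of a smooth muscle cell lineage tracing line. Of these mice, 4 were injected with an antibody against interleukin-1β (labelled IL1_AB, here "antibody") and 4 with immunoglobulin G (labelled IgG_Control, here "IgG"), and each animal gave 1 library. Antibody dose and schedule, the age and sex of the mice, and the Cre driver and any other allele they carried are not given in the sources used here. RNA was drawn from the whole flash-frozen vessel, which the labels describe as a mixture of smooth muscle cells, epithelial cells, macrophages and others. In such bulk RNA, fewer cells of a type and less RNA per cell cannot be told apart.

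Dendritic cells take up antigen in tissues and present it to T cells. Conventional dendritic cells are usually divided into type 1 cells (cDC1), which present antigen from dead cells to CD8 T cells and depend on Batf3 and Irf8, and type 2 cells (cDC2), which present antigen to CD4 T cells and make use of Irf4. Plasmacytoid dendritic cells produce type I interferon. In the arterial wall, dendritic cells lie in the intima and adventitia beside macrophages, which carry some of the same molecules, among them the integrin encoded by Itgax.

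Of the 8 genes, 0 differed between antibody and IgG animals after adjustment over all genes. All 8 had counts in every library and passed the filter on low counts, and for all 8 the values of the groups overlapped. The nearest to the threshold was Batf3, with a lower mean under the antibody. Per length of exon, Itgax was the highest and Irf8 the next in every animal.

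Values are given as CPM, the share of a library's counts after scaling by edgeR's trimmed mean method (TMM), per 1000000 counts, in animals 1 to 4 of each group. The libraries held between 20137336 and 29453014 counts over genes. The share of alignments assigned to genes was 24.4% in IgG 2 and 27.9% in antibody 3, against 29.6% to 34.9% in the other libraries. Thymocyte transcripts set a pair of libraries apart: the summed level of 10 thymus genes was 124 CPM in IgG 1 and 63.6 CPM in antibody 2, against 4.07 to 16.2 CPM elsewhere. Prss16, a protease of the thymic cortex, was at 24.2 CPM in IgG 1 and at most 0.405 CPM in any other library. Foxn1, which defines thymic epithelium, had 17 counts in IgG 1 and 0 in the others. Summed macrophage markers (10 of 10 genes detected) ranged from 3597 to 9534 CPM with IgG and from 4227 to 6159 CPM with antibody. Most of that sum was Lyz2, at 2671 to 7952 CPM with IgG and 3168 to 4977 CPM with antibody. Summed endothelial markers (8 of 8) ranged from 1580 to 2043 CPM and from 1625 to 1857 CPM.

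Promoter sequences of 3 of the genes are shown because they are the only member windows in which a searched motif of dendritic cell transcription factors was found. The windows run from 250 bases before to 50 bases after each RefSeq start site, and 9 windows of the GRCm38.p6 build matched the 8 genes. Both strands were searched, with motifs chosen when sequences could be seen. The composite motif of PU.1 and an IRF factor was spelled as GGAA, then 2 bases of any kind, then GAAA. It was in 892 of 32851 windows of all genes (2.72%) and in 1 of the 9 member windows, that of Cd209a. The AP-1 motif TGANTCA, which AP-1 family factors including Batf3 can recognise with a Jun partner, was in 2565 windows (7.81%) and in 2 member windows, those of Zbtb46 and Itgax. The interferon-stimulated response element, GAAA, then 2 bases of any kind, then GAAA, was in 1131 windows (3.44%) and in 0 of the 9. The composite motif and the response element share their last 4 letters and can overlap. Capitals mark the match, and each sequence runs 5′ to 3′ on the strand of the gene. The Cd209a match lies on the opposite strand and ends at the first transcribed base. Positions are chr8:3748984-3749033 on the minus strand for Cd209a, chr2:181424403-181424489 on the minus strand for Zbtb46 and chr7:128129454-128129540 on the plus strand for Itgax.
Cd209a: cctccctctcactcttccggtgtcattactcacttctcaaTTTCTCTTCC
Zbtb46: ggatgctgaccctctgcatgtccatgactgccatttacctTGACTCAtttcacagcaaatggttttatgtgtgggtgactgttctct
Itgax: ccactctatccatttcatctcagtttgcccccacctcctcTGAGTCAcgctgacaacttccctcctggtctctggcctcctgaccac
A match is a run of letters and not a measured binding site, and these libraries hold no measure of binding.

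The receptors and surface molecules were considered first. Flt3 encodes the receptor tyrosine kinase for FLT3 ligand, the growth factor on which dendritic cell development depends. In the mm9 coordinates of the deposited table it lies on the minus strand of chromosome 5 from 148142317 to 148212065, with 24 exons. It had the lowest count of the 8 genes in any library, 29 counts in IgG 2, and its highest was 158 counts in IgG 4. Its level was 3.56, 1.34, 3.46 and 5.33 CPM in the IgG animals and 2.34, 3.43, 2.19 and 3.72 CPM in the antibody animals. The IgG group held both the lowest and the highest animal, and all antibody values lay between them. The group means were 3.42 ± 1.63 CPM (SD, n = 4) for IgG and 2.92 ± 0.770 CPM (SD, n = 4) for antibody. The log2 fold change, antibody over IgG, was -0.23 ± 0.38 (SE), with a 95% interval from -1.07 to 0.61.

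Itgax encodes CD11c, the integrin alpha chain that is the most widely used surface marker of dendritic cells and is also carried by macrophages. It lies on the plus strand of chromosome 7 from 135273082 to 135294171 in mm9, with 30 exons. Its level was 140, 233, 512 and 332 CPM in the IgG animals and 345, 304, 254 and 409 CPM in the antibody animals. IgG 1 was the lowest and IgG 3 the highest of the 8, a range of 3.67-fold, while the antibody animals spanned 1.61-fold. The means were 304 ± 159 CPM (SD, n = 4) and 328 ± 65.8 CPM (SD, n = 4). The log2 fold change was 0.11 ± 0.34 (SE), with an interval from -0.66 to 0.88. Its sign rested on single animals, since it was -0.12 without IgG 1, -0.0001 without IgG 2 and -0.0155 without antibody 4. Without IgG 3 it kept its sign and was larger, at 0.48.

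Cd209a encodes a C-type lectin of the DC-SIGN family, found on monocyte-derived and some type 2 dendritic cells. It lies on the minus strand of chromosome 8 from 3743395 to 3748984 in mm9, with 7 exons, in a family of similar genes. Alignments to several places were left out of the counts, so its reads are those that matched only there, and its level is uncertain to that extent. It was at 2.33, 1.48, 8.18 and 6.85 CPM in the IgG animals and at 4.39, 6.52, 3.32 and 4.90 CPM in the antibody animals. IgG 1 and IgG 2 were the lowest and IgG 3 and IgG 4 the highest, and the 4 antibody animals fell between these pairs. The 5.55-fold range was the widest of the 8 genes. The means, 4.71 ± 3.31 CPM (SD, n = 4) and 4.78 ± 1.33 CPM (SD, n = 4), differed by a log2 fold change of 0.02 ± 0.49 (SE), with an interval from -1.09 to 1.13. It was -0.27 without IgG 2 and 0.42 without IgG 3.

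The 6 other Cd209 genes in the table were low as well. Cd209f ranged from 3.50 to 12.8 CPM, Cd209b from 2.42 to 5.62 CPM, Cd209d from 1.77 to 3.92 CPM, Cd209g from 1.23 to 3.82 CPM and Cd209c from 0.615 to 2.29 CPM. Cd209e, at 0 to 1.01 CPM, did not pass the filter. Of the 5 tested, 0 passed the unadjusted or the adjusted threshold, 4 had a log2 fold change above 0 and 1 below, with a median of 0.19. Among all genes tested, 52.3% were below 0 and 3.19% passed the unadjusted threshold.

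Clec9a encodes DNGR-1, a C-type lectin receptor for actin filaments exposed on dead cells, and marks type 1 dendritic cells and their precursors. It lies on the plus strand of chromosome 6 from 129358880 to 129374782 in mm9, with 7 exons. Its level was 7.69, 13.6, 7.21 and 9.65 CPM in the IgG animals and 8.49, 9.84, 7.17 and 4.94 CPM in the antibody animals. IgG 2 was the highest and antibody 4 the lowest, and the other 6 animals lay between 7.17 and 9.84 CPM. The means were 9.55 ± 2.93 CPM (SD, n = 4) and 7.61 ± 2.09 CPM (SD, n = 4), with a log2 fold change of -0.32 ± 0.26 (SE) and an interval from -0.91 to 0.26.

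The transcription factors came next. Zbtb46 encodes a zinc finger factor used to separate conventional dendritic cells from macrophages and monocytes, although endothelial cells also express it. It lies on the minus strand of chromosome 2 from 181125591 to 181194131 in mm9, with 5 exons. It was the steadiest of the 8 genes, at 16.4, 25.1, 16.1 and 18.2 CPM in the IgG animals and 21.0, 18.3, 20.5 and 21.4 CPM in the antibody animals. The highest and the lowest animal were both IgG animals, 1.56-fold apart. The means were 19.0 ± 4.19 CPM (SD, n = 4) and 20.3 ± 1.39 CPM (SD, n = 4), with a log2 fold change of 0.10 ± 0.15 (SE) and an interval from -0.24 to 0.45. Without IgG 2, the highest animal, the log2 fold change was 0.26 with an unadjusted p of 0.0349 (edgeR quasi-likelihood test over all genes). In that fit 4.22% of all genes passed the unadjusted threshold.

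Batf3 encodes a basic leucine zipper factor required for type 1 dendritic cells. It is a short gene on the plus strand of chromosome 1, from 192922293 to 192932822 in mm9, with 3 exons and 712 bases of exon, and gave 46 to 90 counts per library. Its level was 2.87, 4.01, 3.24 and 2.43 CPM in the IgG animals and 2.83, 1.89, 2.01 and 2.14 CPM in the antibody animals. Of the antibody animals, 3 were below every IgG animal, and antibody 1 overlapped the IgG range. The means were 3.14 ± 0.670 CPM (SD, n = 4) and 2.22 ± 0.420 CPM (SD, n = 4). The log2 fold change of -0.50 ± 0.23 (SE), with an interval from -1.01 to 0.0157, was the largest in size of the 8, and its unadjusted p was 0.0560 in edgeR's quasi-likelihood test. The unadjusted p was 0.0365 without IgG 4, with a log2 fold change of -0.605, and 0.0334 without antibody 1, with -0.64. Of all genes, 1.93% and 2.29% passed the unadjusted threshold in these fits. The log2 fold change was smaller in the edgeR fit without IgG 2, at -0.36 (unadjusted p = 0.146), and without IgG 2 and antibody 3, at -0.30 (unadjusted p = 0.261). With limma-voom it was -0.18 (unadjusted p = 0.366).

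Irf8 encodes an interferon regulatory factor that directs monocyte, type 1 and plasmacytoid dendritic cell development and is also active in macrophages and B cells. It lies on the plus strand of chromosome 8 from 123260258 to 123280592 in mm9, with 10 exons. Its level was 51.7, 85.4, 89.9 and 82.6 CPM in the IgG animals and 63.5, 63.0, 62.1 and 73.8 CPM in the antibody animals. In the IgG group 3 animals were above every antibody animal, while IgG 1 was the lowest of all 8. The means were 77.4 ± 17.4 CPM (SD, n = 4) and 65.6 ± 5.50 CPM (SD, n = 4), with a log2 fold change of -0.24 ± 0.17 (SE) and an interval from -0.62 to 0.14. Without IgG 1, the library with the most thymocyte transcripts, it was -0.39, with an unadjusted p of 0.00612 and an adjusted p of 0.511 in the edgeR fit. In that fit 9.50% of all genes passed the unadjusted threshold. Without IgG 1 and antibody 2 together, it was -0.37 with an unadjusted p of 0.0182, where 8.11% of all genes passed that threshold.

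Irf4 encodes a related factor that serves type 2 dendritic cells and is strongly expressed in plasma cells. It lies on the plus strand of chromosome 13 from 30841127 to 30858796 in mm9, with 9 exons. Its level was 13.3, 12.2, 12.2 and 25.3 CPM in the IgG animals and 11.9, 12.2, 15.0 and 13.3 CPM in the antibody animals. IgG 4 alone stood apart, and the other 7 animals lay between 11.9 and 15.0 CPM. The means were 15.7 ± 6.38 CPM (SD, n = 4) and 13.1 ± 1.4 CPM (SD, n = 4), with a log2 fold change of -0.27 ± 0.24 (SE) and an interval from -0.81 to 0.28. Without IgG 4 it was 0.06. IgG 4 also held the most Jchain, the joining chain of plasma cell antibodies, at 36.0 CPM. Jchain was next highest in IgG 1, at 28.5 CPM, where Irf4 was at 13.3 CPM. Of 9 B and plasma cell markers, 8 had a log2 fold change below 0, with a median of -1.06, and 4 passed the unadjusted and 0 the adjusted threshold. Over all genes tested, 52.3% were below 0 and 3.19% passed the unadjusted threshold. The part of plasma cells in the Irf4 value was not tested.

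**Figure D1:**
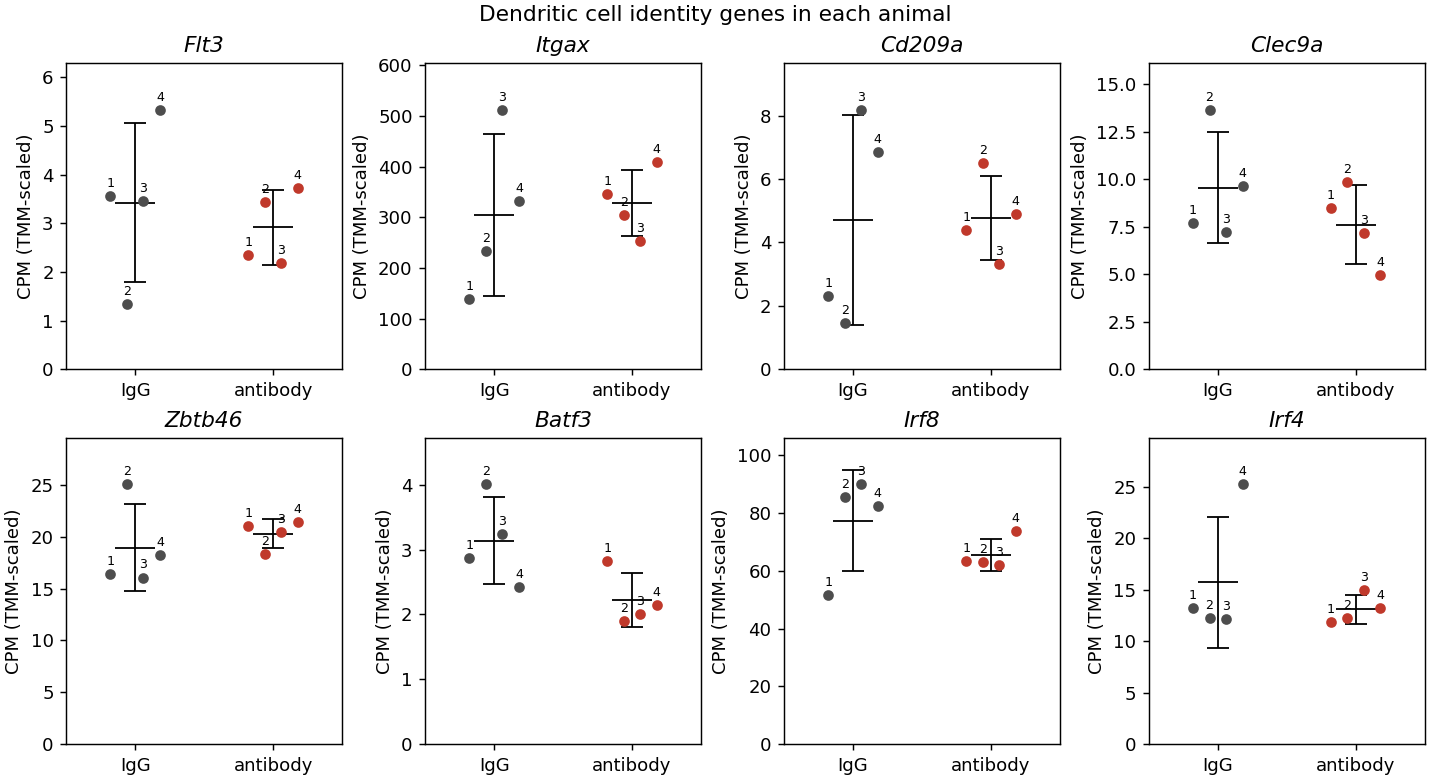
TMM-scaled CPM of each of the 8 genes in each animal (numbered points), with the mean and SD of 4 animals per group as bars. The groups overlap for every gene, IgG 4 stands apart for Irf4 at 25.3 CPM, and the IgG animals spread more widely than the antibody animals for Itgax, Cd209a and Flt3.

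Of the 8 genes, 5 had a log2 fold change below 0 (Flt3, Clec9a, Batf3, Irf8 and Irf4) and 3 above 0. Over all 15980 genes tested, 52.3% were below 0. The median log2 fold change was -0.23 over the 8 genes and -0.0096 over all genes. In edgeR's quasi-likelihood fit 0 of the 8 passed the Benjamini-Hochberg threshold, each with an adjusted p of 0.9997, against 0 of all genes (0%), the lowest adjusted p of any gene being 0.208. At an unadjusted p under 0.05, 0 of the 8 passed, against 509 of all genes (3.19%), of which 329 were lower (2.06%) and 180 higher (1.13%) under the antibody. With libraries scaled by total counts, 53.1% of the genes past that threshold were higher, while TMM gave 35.4%. After adjustment, DESeq2 passed 9 genes of the table and limma-voom passed 2, none of them among the 8. The groups did not overlap for 0 of the 8, against 1.96% of all genes.

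The intervals set out what size of change these animals leave possible. For Itgax, Clec9a, Zbtb46, Irf8 and Irf4 the 95% interval lay within a 2-fold change in either direction. For Flt3, Cd209a and Batf3 it reached past a 2-fold change. A p above the threshold does not show that the levels were equal.

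**Figure D2:**
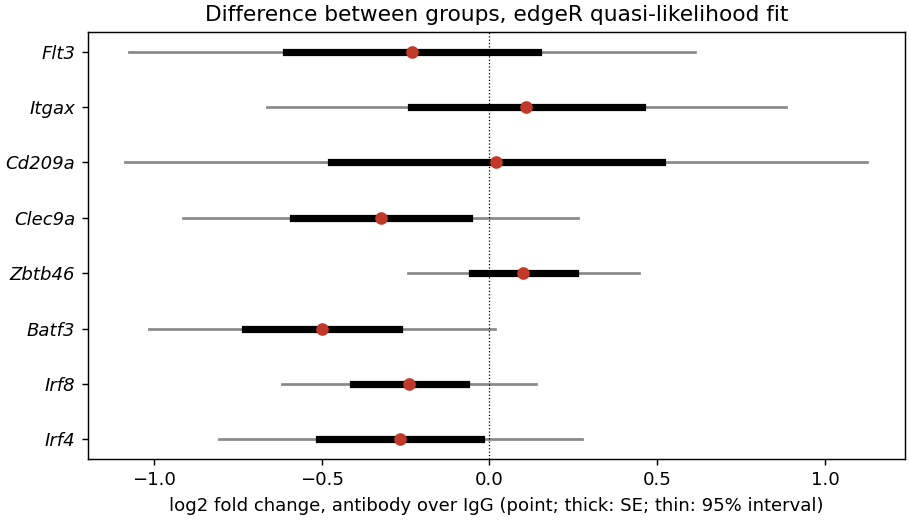
Log2 fold change of each of the 8 genes, antibody over IgG, with the standard error (thick line) and 95% interval (thin line) from the edgeR quasi-likelihood fit. Every interval crosses 0, that of Batf3 by the least, and the Cd209a interval from -1.09 to 1.13 is the widest.

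The spread among animals differed between groups. The SD of log2 CPM was larger in the IgG than in the antibody animals for 7 of the 8 genes, all but Clec9a, against 65.7% of all genes tested. Within the IgG group the highest animal exceeded the lowest by 5.55-fold for Cd209a, 3.99-fold for Flt3 and 3.67-fold for Itgax. Within the antibody group the same ratios were 1.96, 1.70 and 1.61. Irf8 and Zbtb46 spanned 1.19-fold and 1.17-fold among antibody animals.

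Levels were compared between genes per kilobase of exon, as CPM divided by the exon length in the deposited table. Itgax was the highest, with a median over the 8 animals of 79.0 CPM per kb (34.7 to 127). Irf8 followed at 20.0 CPM per kb (15.1 to 26.2), and Zbtb46 was the third at 5.82 CPM per kb (4.82 to 7.52). Batf3 was at 3.69 CPM per kb (2.66 to 5.63), Cd209a at 3.13 (0.994 to 5.51), Irf4 at 2.72 (2.54 to 5.40) and Clec9a at 2.46 (1.5 to 4.14). Flt3 had the lowest median, 0.943 CPM per kb (0.365 to 1.46), and its range overlapped that of Cd209a. The ranges of neighbours did not overlap between Itgax and Irf8, Irf8 and Zbtb46, or Clec9a and Flt3, whose medians were 3.95-, 3.44- and 2.61-fold apart. The 4 neighbouring pairs from Zbtb46 down to Clec9a overlapped, so their order was not resolved beyond the spread among animals. The median for Itgax was 83.8-fold that of Flt3.

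**Figure D3:**
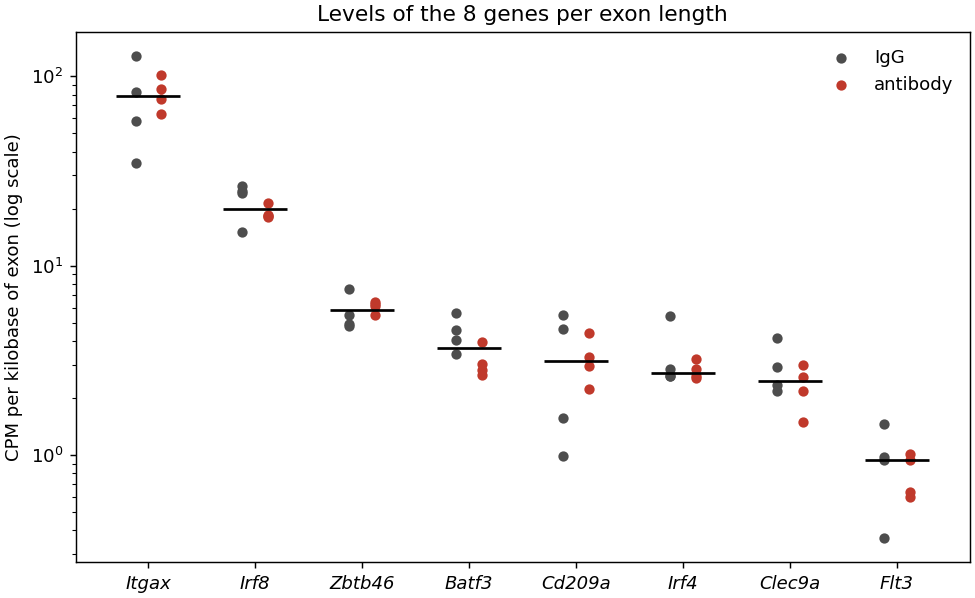
Level of each gene per kilobase of exon on a log scale, with 1 point per animal coloured by group and a line at the median of the 8 animals. Itgax and Irf8 lie above every animal's value for the other genes, and the 5 genes from Zbtb46 to Clec9a overlap in neighbouring pairs. Flt3 has the lowest median, but its range (up to 1.46) overlaps that of Cd209a (down to 0.994).

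No pair of the 8 genes was correlated over the animals after adjustment. Among the 28 pairs of genes, Pearson's r of log2 CPM over the 8 animals ran from -0.726 to 0.758 with a median of 0.127, and 16 pairs were above 0. In exact permutation tests 3 pairs passed an unadjusted p of 0.05 and 0 passed after Benjamini-Hochberg adjustment, the lowest adjusted p being 0.393. The highest was Itgax with Cd209a (r = 0.758, exact permutation p = 0.0278; Spearman's rho = 0.786, p = 0.0279), at r = 0.71 without IgG 1 and IgG 3, the animals farthest from the median of Itgax. Flt3 with Cd209a (r = 0.732, exact permutation p = 0.0369; rho = 0.571, p = 0.151) was at r = 0.271 without IgG 2 and antibody 3, the animals farthest from the median of Flt3 and also those with the lowest share of alignments assigned. Flt3 with Zbtb46 (r = -0.726, exact permutation p = 0.0421; rho = -0.476, p = 0.243) was at -0.31 without the same animals. Neither of the latter relations held without those animals, whose removal also narrows the range of Flt3. The factors paired with type 1 cells, Batf3 and Irf8, had r = 0.423 (exact permutation p = 0.293; rho = 0.524, p = 0.197) and r = 0.135 without IgG 2 and antibody 2.

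Each gene was also set against 5 marker scores and the share of alignments assigned, which made 48 relations. A score was the mean log2 CPM of the genes of a list that passed the filter on low counts. For thymus these were 4 of the 10 genes, Rag1, Themis, Ccl25 and Dntt, so Prss16 and Foxn1 were not in that score. Of these, 7 passed an unadjusted exact permutation p of 0.05 and 0 passed after adjustment, the lowest adjusted p being 0.135. Irf8 ran against the thymus score (r = -0.859, exact permutation p = 0.00563, adjusted p = 0.135; rho = -0.714, p = 0.0576), with r = -0.725 without IgG 1 and antibody 2, the libraries that hold most of the thymus transcripts. Irf8 ran with the macrophage score (r = 0.844, exact permutation p = 0.0100, adjusted p = 0.160; rho = 0.881, p = 0.00724), with r = 0.755 without IgG 3 and IgG 4. Itgax had r = 0.663 with that score (exact permutation p = 0.0709, adjusted p = 0.352; rho = 0.667, p = 0.0831), and r = 0.517 without the same animals. After group means were subtracted, r with the macrophage score was 0.929 for Itgax, 0.810 for Irf8 and 0.802 for Cd209a. For the other genes it lay between -0.32 for Clec9a and 0.51 for Flt3. These centred values were not tested. Zbtb46 was nearest to the endothelial score (r = 0.788, exact permutation p = 0.0202, adjusted p = 0.194; rho = 0.619, p = 0.115), but r was 0.318 without IgG 1 and IgG 2, the animals farthest from the median of that score. Flt3 ran against the endothelial score (r = -0.722, exact permutation p = 0.0483, adjusted p = 0.331). Its rho there was -0.333 (exact permutation p = 0.428), and r was -0.426 without IgG 1 and IgG 2. Flt3 had the highest value of all, with the share of alignments assigned (r = 0.906, exact permutation p = 0.0031, adjusted p = 0.135; rho = 0.691, p = 0.0694), with r = 0.621 without IgG 2 and antibody 3. Zbtb46 ran against that share (r = -0.795, exact permutation p = 0.0176, adjusted p = 0.194; rho = -0.595, p = 0.132), with r = -0.52 without the same animals. Cd209a ran with that share (r = 0.760, exact permutation p = 0.0257, adjusted p = 0.206). Its rho there was 0.619 (exact permutation p = 0.115), and r was 0.324 without IgG 2 and antibody 3. With that share as a covariate, a choice made after seeing the data, Batf3 had an unadjusted p of 0.0416 at a log2 fold change of -0.50, and 4.59% of all genes passed that threshold.

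**Figure D4:**
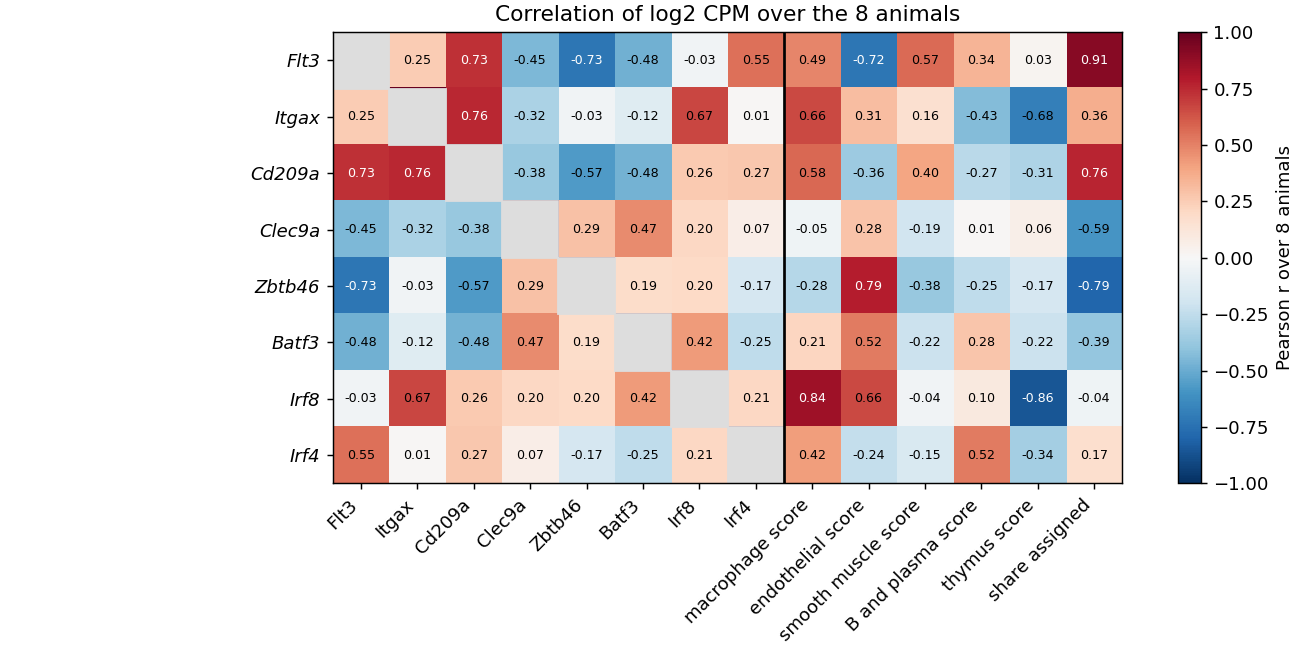
Pearson's r of log2 CPM over the 8 animals, among the 8 genes (left of the line) and between each gene and 5 marker scores or the share of alignments assigned (right of the line). Values among the genes run from -0.726 to 0.758, and the highest value in the plot is that of Flt3 with the share of alignments assigned, 0.906.

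Because macrophages share several of these transcripts, each gene was compared with the macrophage score of the same animal. The score was 7.20 ± 0.39 (SD, n = 4) in IgG and 6.89 ± 0.205 (SD, n = 4) in antibody animals, on the log2 CPM scale (2-sided exact permutation p = 0.229). Itgax stood above the score by 0.39, 0.84, 1.45 and 0.88 in the IgG animals and by 1.66, 1.34, 1.29 and 1.51 in the antibody animals. IgG 3 alone of its group reached the antibody range. The mean difference between groups was 0.56 (exact permutation p = 0.0857, where 4 against 4 animals can give no less than 0.0286). As the mean score was lower in antibody animals, subtracting it raised the difference of every gene by the same amount. The edgeR fit without the score gave Itgax a log2 fold change of 0.11. That is a model estimate from counts and not a difference of mean log2 CPM. The step from 0.11 to 0.56 is therefore not the effect of the subtraction alone. Over the other 7 genes the difference after subtraction ran from -0.16 for Batf3 to 0.62 for Cd209a, with exact permutation p from 0.257 to 1. The groups did not overlap for 0 of the 8 genes, against 1.51% of all genes that were higher and 0.106% that were lower without overlap. With the macrophage score as a covariate in the edgeR fit, the log2 fold change of Itgax was 0.82 (unadjusted p = 0.00199, adjusted p = 0.9997) and that of Cd209a 0.98 (unadjusted p = 0.0362), while 3.70% of all genes passed the unadjusted threshold. In the same fit Irf8 was at -0.003 (unadjusted p = 0.983), against -0.24 without the covariate. The 5 monocyte markers were all below 0 as well, against 52.3% of all genes, with a median of -0.57. Of these markers, 2 passed the unadjusted threshold, against 3.19% of all genes, and 0 passed the adjusted threshold. The part of macrophage content in these values was not tested further.

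Companion genes of each dendritic cell type were counted from lists. Beside each list stand the values over all genes tested: 52.3% were below 0, 3.19% passed the unadjusted threshold, and the median was -0.0096. The highest genes of a list were ranked by mean CPM, without correction for exon length. Per kilobase the order differs: among type 1 companions, the median was 41.6 CPM per kb for Id2 and 8.80 for Wdfy4. Of 10 type 1 companions 10 were tested, with 3 above 0 and 7 below, a median log2 fold change of -0.21, and 0 past the adjusted threshold. The 3 highest were Wdfy4, a protein needed for presentation of cell-derived antigen by type 1 cells, at 98.4 ± 19.6 CPM with IgG and 83.2 ± 2.27 CPM with antibody (SD, n = 4), the adhesion molecule Cadm1 at 76.5 ± 21.7 and 86.0 ± 10.1 CPM, and the surface glycoprotein Cd24a at 58.3 ± 33.9 and 73.6 ± 13.5 CPM. Xcr1, the chemokine receptor that defines type 1 cells, was far lower, at 0.700 to 2.16 CPM. Cd24a was highest in IgG 1, at 102 CPM, and antibody 2, at 85.1 CPM, the libraries with the most thymocyte transcripts. It was at 84.0 CPM in antibody 1, and the part of thymocytes in its level was not tested. Only Btla, an inhibitory receptor also found on B and T cells, passed the unadjusted threshold in this list, with a log2 fold change of -1.12 ± 0.39 (SE, unadjusted p = 0.0185). Xcr1, Btla and the other genes outside the 3 highest of a list were singled out after their values were seen.

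Of 11 type 2 companions 10 were tested and all 10 were below 0, against 52.3% of all genes. The median of these companions was -0.19, and 0 passed the adjusted threshold. Their highest were Sirpa, an inhibitory receptor shared with macrophages, at 541 ± 170 and 459 ± 23.8 CPM (SD, n = 4), the receptor Notch2 at 274 ± 21.1 and 246 ± 23.7 CPM, and Esam, an adhesion molecule shared with endothelium, at 74.6 ± 11.7 and 71.1 ± 4.49 CPM. Clec4a2, an inhibitory lectin, had a log2 fold change of -0.63 ± 0.19 (SE, unadjusted p = 0.00872), and Ltb, which encodes lymphotoxin beta, -0.72 ± 0.28 (SE, unadjusted p = 0.0285). The 10 macrophage markers were likewise all below 0, with a median of -0.32. Clec4a4, the lectin DCIR2 of type 2 cells, was at 0.0875 to 0.506 CPM and was not tested.

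Of 10 plasmacytoid companions 8 were tested, with 4 above and 4 below 0, a median of -0.078, and 0 past either threshold. Tcf4, the E protein that directs the plasmacytoid fate and is widely expressed, was at 207 ± 14.9 and 208 ± 16.7 CPM (SD, n = 4), Bst2, an interferon-induced membrane protein, at 50.3 ± 7.26 and 54.8 ± 16.0 CPM, and Pacsin1 at 8.99 ± 7.07 and 11.7 ± 5.10 CPM. Siglech, which marks plasmacytoid cells in mice, was at 0.288 to 3.28 CPM.

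Of 10 companions of mature dendritic cells 8 were tested, with 1 above and 7 below 0, a median of -0.40, and 0 past either threshold. Of all genes, 52.3% were below 0. Cd83, an activation marker, was at 39.6 ± 10.3 and 30.2 ± 4.32 CPM (SD, n = 4), with a log2 fold change of -0.39 ± 0.19 (SE, unadjusted p = 0.0674). Fscn1, which bundles actin in dendrites, was at 26.99 ± 6.18 and 27.8 ± 3.15 CPM, and Socs2, a cytokine signalling inhibitor, at 20.4 ± 1.99 and 19.3 ± 1.62 CPM. Ccr7, the receptor that guides mature cells to lymph nodes, was at 0.787 to 3.06 CPM, and Lamp3 at 0 to 0.210 CPM.

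Of 11 growth factor and lineage genes 10 were tested, with 1 above and 9 below 0, against 52.3% of all genes below 0. The median of the 10 was -0.19, and 0 passed the adjusted threshold. Flt3l, which encodes the ligand of Flt3, was at 9.41 to 18.1 CPM, with a log2 fold change of -0.23 ± 0.20 (SE). The 3 highest were the factor Zeb2 at 322 ± 53.8 and 279 ± 21.6 CPM (SD, n = 4), Stat3, the signal transducer downstream of Flt3, at 238 ± 30.3 and 223 ± 10.7 CPM, and the cytokine receptor chain Csf2rb at 146 ± 43.3 and 128 ± 9.70 CPM. The lineage factor Ikzf1 had a log2 fold change of -0.44 ± 0.12 (SE, unadjusted p = 0.00454) and Runx3 -0.55 ± 0.24 (SE, unadjusted p = 0.0461).

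**Figure D5:**
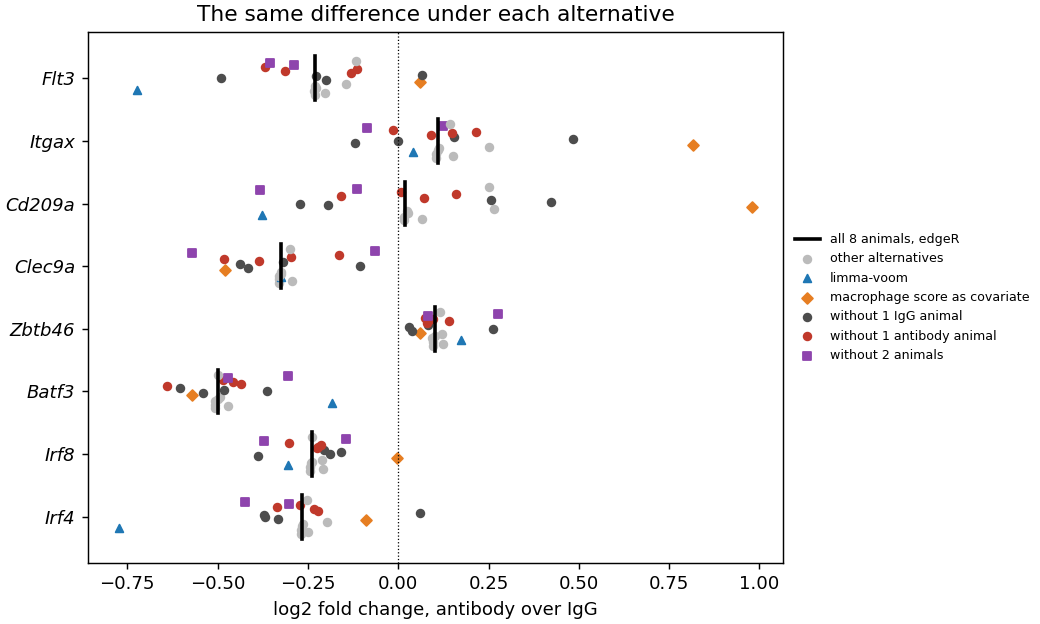
Log2 fold change of each of the 8 genes in the reported fit and under 19 other settings, with the kind of setting given by colour and shape. Clec9a, Zbtb46, Batf3 and Irf8 stay on their side of 0 under all 19, Irf8 at -0.003 with the macrophage covariate, and Flt3, Itgax, Cd209a and Irf4 cross it under at least 1.

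The genes whose pattern over the 8 animals was most like each of the 8 were found by Pearson's r of log2 CPM among 14640 genes with a mean of at least 1 CPM. They are a description of the most extreme of many values over 8 animals. Irf8 was most like Tmem173, which encodes the DNA-sensing adaptor STING (r = 0.991), Cxcl16, a chemokine of macrophages and dendritic cells (r = 0.984), and Arhgap30 (r = 0.984). Itgax was most like the interleukin-7 receptor gene Il7r (r = 0.984), Efna1 (r = 0.983) and Fam129b (r = 0.972). Irf4 had the lowest values, with Utp20 (r = 0.906), the B cell chemokine Cxcl13 (r = 0.893) and Aven (r = 0.886), and Cxcl13 was at 10.1 CPM in IgG 4 and 2.03 to 4.44 CPM elsewhere. Zbtb46 was most like Taz (r = 0.978), Ubr2 (r = 0.968) and Atxn7l3 (r = 0.956), and Flt3 most like Zfp934 (r = 0.967), Plrg1 (r = 0.962) and Prmt10 (r = 0.960). The closest to Cd209a were Zfp558 (r = 0.971), Gm3604 (r = 0.968) and Zxdb (r = 0.965). Clec9a had AW046200 (r = 0.968), Zfp821 (r = 0.956) and Pura (r = 0.934), and Batf3 had 5830415F09Rik (r = 0.968), Riok1 (r = 0.959) and Uimc1 (r = 0.939). None of the 8 genes was among the 3 nearest of another.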

How the data were processed

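Total RNA from 8 arteries, 1 per mouse, was sequenced, and group and replicate were taken from the sample titles. The deposited values are raw counts that the authors made over exons of mm9 genes with featureCounts 1.4.6-p4, per the file headers. The header shows no option for strand, read pairs or multimapping reads, so antisense reads count for the gene they overlap. No exon of the 8 genes overlapped an exon of another gene in the table. The exon length, another value of the deposited table, was used only for levels per kilobase. The submitters' processing notes also list STAR 3.0, CASAVA, DESeq2 and Subread, with no role for each. No per-sample column was left unused (0).

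Counts were filtered with filterByExpr (minimum count 10, minimum total 15), which kept 15980 genes. They were TMM-scaled and fitted with edgeR 4.0.16 (quasi-likelihood, robust, no covariate) in R 4.3.3. P-values were adjusted over all genes kept by Benjamini-Hochberg. Log2 CPM used a prior count of 2, intervals are 95%, and 4 against 4 animals limit the precision. The scripts were tested on simulated data. Alternatives used DESeq2 1.42.0, limma 3.58.1 (voom), other scalings and filters, covariates, and fits without animals. Between any 2 libraries, chi-square divided by its degrees of freedom was at least 26.5, so none was a copy of another. The 8 genes and the lists were chosen with earlier results of these data known. By rule, the named genes are the 8, the 3 highest by mean CPM of each companion list, the 3 nearest in pattern to each of the 8, and the Cd209 family. Other genes named in the text, such as defining markers at low level and list genes past the unadjusted threshold, were chosen after their values were seen. Of 125 list genes 124 were in the table. Promoters are RefSeq windows of GRCm38.p6, whose coordinates are distinct from the mm9 positions of the counts.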

Additional observations from a re-analysis of the deposited data

Results flagged for a closer look

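A sample was singled out where its gap to the nearest of the other 3 animals of its group, divided by the range of the group, exceeded Dixon's value of 0.829. Of 46 groups of values tested, 6 did so, 2 of them among the 16 groups of the dendritic cell genes, and chance gives about 1 in 20. Irf4 was at 25.3 CPM in IgG 4, against 12.2 to 13.3 CPM in the other IgG animals. Irf8 was at 73.8 CPM in antibody 4, against 62.1 to 63.5 CPM in the other antibody animals. Summed macrophage markers were also highest in antibody 4 within that group, at 6159 CPM against 4227 to 4431 CPM. Most of that sum was Lyz2, at 4977 CPM in antibody 4. The summed growth factor and lineage genes were lowest in IgG 1, at 809 CPM against 1091 to 1135 CPM in the other IgG animals. Summed thymus genes were at 124 CPM in IgG 1, against 4.07 to 8.39 CPM in the other IgG animals, and at 63.6 CPM in antibody 2, against 6.60 to 16.2 CPM in the other antibody animals. What set these animals apart was not tested.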

How the results depend on the processing

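Each of the 8 genes was recomputed under 19 settings, 16 planned and 3 chosen after seeing the data (without IgG 1 and antibody 2, without IgG 2 and antibody 3, and the share of alignments assigned as a covariate). None of the 8 passed the adjusted threshold under any of them, and Clec9a, Zbtb46, Batf3 and Irf8 kept their sign in all 19, although Irf8 was at -0.003 with the macrophage score as a covariate and Batf3 at -0.18 with limma-voom. All genes past the adjusted threshold numbered 0 as reported, 9 with DESeq2, 2 with limma-voom and 1 without IgG 1 and antibody 2, and 0 to 1 without single animals (1 without IgG 1 and 1 without antibody 2). Those past the unadjusted threshold numbered 509 as reported, 635 with DESeq2, 2772 with limma-voom, 1282 without IgG 1 and antibody 2, and 310 to 1517 without single animals (1517 without IgG 1, 783 without antibody 2, 336 without antibody 3 and 310 without IgG 4). Of the 8 genes, those past the unadjusted threshold numbered 0 as reported and 3 with limma-voom (Flt3 -0.72, Irf8 -0.31 and Irf4 -0.77, where 17.3% of all genes passed). They numbered 2 with the macrophage score as a covariate (3.70% of all genes) and 1 with the share of alignments assigned as a covariate (4.59%). They numbered 1 without IgG 1 and antibody 2 (8.11%), and 0 to 1 without single animals (1.93% to 9.50% of all genes). Those below 0 numbered 5 as reported and 3 to 7 without single animals, with 3 without IgG 4. Reversed values were 0.0596 for Flt3 with the macrophage covariate, -0.087 for Itgax without IgG 1 and antibody 2, and for Cd209a -0.38 with limma-voom, -0.38 without IgG 1 and antibody 2 and -0.11 without IgG 2 and antibody 3. Without single animals the log2 fold change ranged from -0.49 to 0.0646 for Flt3, -0.12 to 0.48 for Itgax, -0.27 to 0.42 for Cd209a, -0.48 to -0.10 for Clec9a, 0.03 to 0.26 for Zbtb46, -0.64 to -0.36 for Batf3, -0.39 to -0.16 for Irf8 and -0.37 to 0.0609 for Irf4. The cause of these shifts was not tested. With total-count scaling the median of all genes shifted by 0.0248, and the level order was unchanged. Whether same-numbered animals were paired is not given in the labels, and they were not treated as pairs. Same-numbered animals 1 to 4 correlated at 0.293, -0.344, -0.127 and -0.0012 in their deviations from the group means. IgG 1 alone correlated most with the antibody animal of its own number. These correlations cannot show whether animals were paired. With the replicate number as a block, 361 genes and 0 of the 8 passed the unadjusted threshold. Low counts limit Flt3, Batf3 and Cd209a most, with 29 to 227 counts per library.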
